A study of Homo sapiens with 9 samples.

Results

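Very long genes were followed across androgen deprivation, androgen stimulation and topoisomerase II inhibition in LNCaP cells, an established line from a human prostate carcinoma that responds to androgen. The members were 41 listed genes that span roughly 300 kb or more of the genome and are named by a single symbol in the platform annotation. Of these, 38 had a probe set assigned to 1 gene, and for each the brightest of its probe sets, by mean over the 9 arrays, was used. Kept members were selected on their level with DHT: the 26 whose value on the DHT array was above that array's median, out of 19775 genes measured. Of these 26, 24 also passed the filter on dim genes and could be tested. Their RefSeq spans ran from 295 kb (MMP16, just under the nominal limit) to 2304 kb (CNTNAP2), with a median of 737 kb.

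RNA polymerase II has to unwind the DNA helix as it moves, which overwinds the template ahead of it and underwinds it behind. Topoisomerases relax that strain, and type II enzymes do so by cutting both strands and passing another stretch of helix through the break. The longer a gene, the longer the polymerase must keep going before a full transcript is made, and very long genes are known from work in neurons to be sensitive to topoisomerase inhibition. Many such genes encode adhesion molecules, receptors and scaffolds of the nervous system, and several, WWOX, FHIT and IMMP2L among them, lie at common fragile sites, regions that break easily under replication stress.

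Each group had 1 array. In the inhibitor series, steady-state cells were kept in 10% serum, and all other cells were washed and held for 48 h in 5% charcoal-stripped serum, which removes androgen. Deprived cells were then left as the androgen-free control (here called vehicle), given 100 nM of the androgen dihydrotestosterone (DHT) for 16 h, or pretreated for 2 h with 100 µM etoposide or 100 µM merbarone before the same DHT stimulation. Etoposide traps topoisomerase II on cut DNA, whereas merbarone blocks the enzyme without trapping it. In the shRNA series, cells received a GFP vector with sh-control or with sh-TOP2B, a short hairpin RNA against the gene of topoisomerase II beta, were deprived in the same way, given vehicle or DHT for 16 h, and sorted for GFP. The labels name no separate cultures, so the p-values cover no more than the spread among these arrays. That spread is how far the DHT effect differed among the 3 DHT-vehicle pairs (inhibitor series, sh-control and sh-TOP2B). It may be technical or may hold differences in DHT response between those backgrounds, and it comes from no repeated arrays of a group. In such bulk samples fewer expressing cells and less RNA per cell cannot be told apart.

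Levels are log2 expression values, and a level at or below its array's median (5.61 to 5.72) is called dim. Where 1 level of a difference was dim, the difference is a bound, with the dim level raised to the median ("at least"). Because the members were kept for their level on the DHT array, differences from that array are given as values without a test, and tests are given where that array was not used. Of 9 luminal prostate markers measured, 7 to 9 were above the median on each array, against 0 or 1 of 3 basal and 0 or 1 of 3 leukocyte markers, 2 of 6 stromal and 1 or 2 of 5 neuroendocrine markers. The 3' minus 5' difference of the beta-actin control, a measure of RNA integrity and labelling, was 0.38 to 0.70 in the inhibitor series and 2.38 to 3.09 in the shRNA series, so differences were taken within a series.

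On the DHT array, whose median was 5.65, the members just inside the threshold were CNTNAP2 (5.69) and NRXN3 (5.81), and those just outside were FHIT (5.37) and DPYD (5.32). The 12 measured members that were not kept were LRP1B, FHIT, PTPRD, ERBB4, DLG2, MACROD2, SOX5, LSAMP, OPCML, TCF4, PRKG1 and DPYD. MAGI1, MAGI2 and CADM2 had no single-gene probe set used here. Of the members not kept, TCF4, a basic helix-loop-helix transcription factor, was at 8.00 to 8.50 on the 4 shRNA arrays and at 4.79 to 5.13 on the others. DLG2, a synaptic scaffold, was at 5.31 and 6.14 with vehicle and 7.92 and 7.28 with DHT in sh-control and sh-TOP2B cells, and dim throughout the inhibitor series. Of the kept members, 19 were above the median on all 9 arrays.

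**Figure D1:**
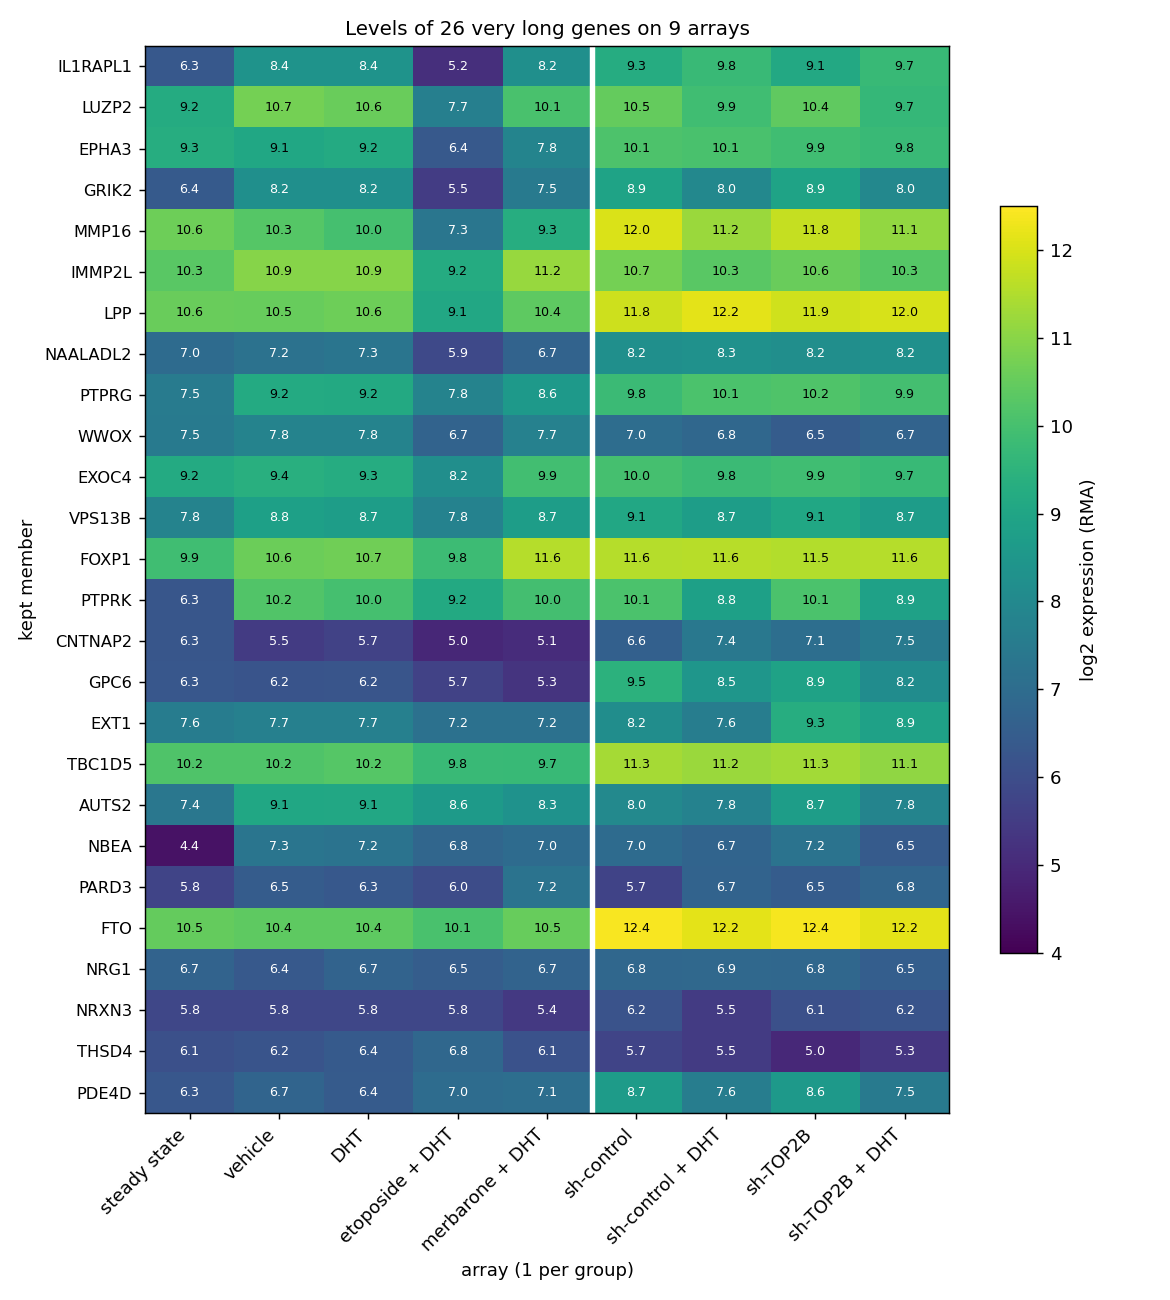
Log2 expression of the 26 kept members (rows, ordered by their difference with etoposide) on the 9 arrays (columns, 1 array per group; the white line divides the inhibitor series from the shRNA series). The etoposide column is darker than the DHT and merbarone columns in the upper rows, where IL1RAPL1 is at 5.16 against 8.38 and 8.23, and the steady-state column is darkest for NBEA (4.41).

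With etoposide, most kept members were lower than with DHT alone. Values were below 0 for 23 of 26, the median was -0.84, and 11 were lower by at least 1, with none higher by as much. Of all 12671 genes above the DHT array's median, 1.29% were lower by at least 1. The members were kept on 1 of these 2 arrays, so that share stands beside the count and nothing is read from it. The 11 were IL1RAPL1, LUZP2, EPHA3, GRIK2, MMP16, IMMP2L, LPP, NAALADL2, PTPRG, WWOX and EXOC4. With merbarone, given at the same dose for the same time, the median was -0.26 and the range -1.36 to 0.91. EPHA3 alone was lower by at least 1 and no kept member was higher by 1, beside 7.07% of all such genes lower and 6.2% higher.

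Under neural adhesion, synapse and glutamate receptor, 5 kept members were listed, with LUZP2 placed among them. Of these 5 genes, 3 were lower by at least 1 with etoposide. IL1RAPL1, a synapse-organising relative of the interleukin-1 receptor accessory protein, was at 6.35 in steady state, 8.38 with vehicle, 8.38 with DHT, 5.16 with etoposide and 8.23 with merbarone. Its etoposide level was the only dim level among the 5, so it was lower than with DHT by at least 2.71, or 6.52-fold, while the merbarone difference was -0.15. LUZP2, a leucine zipper protein gene, was at 9.23, 10.73, 10.57, 7.68 and 10.05 on the same arrays in that order. Its differences from DHT were -2.89 with etoposide (7.41-fold lower) and -0.52 with merbarone. GRIK2, which encodes a kainate-type glutamate receptor subunit, was at 6.41, 8.23, 8.24, 5.52 and 7.48. It too became dim with etoposide, lower by at least 2.56, or 5.89-fold, against -0.76 with merbarone. CNTNAP2, a neurexin-family adhesion gene, and NRXN3, a presynaptic neurexin, lay near the median. CNTNAP2 was dim with both inhibitors, and NRXN3 had the same deposited value, 5.81, on 4 arrays (steady state, vehicle, DHT and etoposide).

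The starts of these genes differ in makeup, which the promoter windows of RefSeq (GRCh38.p14, 250 bases before to 50 after a listed start, strand of the gene) show. Windows were listed for 21 of the 26 kept members, 46 windows in all, and not for MMP16, NRG1, EXT1, VPS13B and PARD3. The first 3 windows below belong to members that were lower with etoposide by at least 1 and have 1 listed start, and the last to the most downstream of the 8 starts listed for PDE4D, the member with the highest etoposide difference. CG dinucleotides are in capitals. The windows lie at chr11:24496803-24497102 (plus strand) for LUZP2, chrX:28587196-28587495 (plus strand) for IL1RAPL1, chr7:111562443-111562742 (minus strand) for IMMP2L and chr5:58999849-59000148 (minus strand) for PDE4D.
LUZP2: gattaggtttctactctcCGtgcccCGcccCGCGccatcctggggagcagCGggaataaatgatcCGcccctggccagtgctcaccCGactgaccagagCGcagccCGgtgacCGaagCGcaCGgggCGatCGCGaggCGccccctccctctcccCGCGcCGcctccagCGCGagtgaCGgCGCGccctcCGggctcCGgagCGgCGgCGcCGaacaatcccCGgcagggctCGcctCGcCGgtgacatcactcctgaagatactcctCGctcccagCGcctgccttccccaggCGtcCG
IL1RAPL1: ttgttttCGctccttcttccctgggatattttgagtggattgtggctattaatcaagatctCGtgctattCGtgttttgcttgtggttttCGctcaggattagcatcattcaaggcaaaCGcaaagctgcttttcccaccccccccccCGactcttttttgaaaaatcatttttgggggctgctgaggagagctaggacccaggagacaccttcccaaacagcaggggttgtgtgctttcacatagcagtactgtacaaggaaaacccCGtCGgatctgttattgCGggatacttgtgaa
IMMP2L: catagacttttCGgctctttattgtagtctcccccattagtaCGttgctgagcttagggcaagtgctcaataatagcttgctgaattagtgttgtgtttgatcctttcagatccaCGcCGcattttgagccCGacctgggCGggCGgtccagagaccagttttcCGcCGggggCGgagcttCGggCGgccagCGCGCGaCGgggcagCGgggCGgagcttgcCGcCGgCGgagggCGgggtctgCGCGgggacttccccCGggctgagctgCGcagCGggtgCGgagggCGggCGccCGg
PDE4D: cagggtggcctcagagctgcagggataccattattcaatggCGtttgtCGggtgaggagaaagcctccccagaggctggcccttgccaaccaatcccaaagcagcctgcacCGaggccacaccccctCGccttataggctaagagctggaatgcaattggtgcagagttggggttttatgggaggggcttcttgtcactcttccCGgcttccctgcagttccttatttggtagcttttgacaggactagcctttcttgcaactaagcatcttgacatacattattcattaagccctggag
The LUZP2 window holds 38 CG dinucleotides and the IMMP2L window 31, against 9 for IL1RAPL1 and 5 for this PDE4D start, so members with a large etoposide difference had both CG-rich and CG-poor starts. Over the 46 windows the median was 11 CG dinucleotides, against 14 over all 35116 RefSeq windows, and the median GC content was 55.8% against 58.7%. On either strand, TATAAA (the TATA box core) was found in 6.52% of the members' windows and 11.5% of all windows, GGGCGG (the GC box) in 37% and 45%, and AGAACA (the androgen receptor half-site) in 19.6% and 14.8%. These figures count windows and not genes, and PDE4D gave 8 of the 46, LPP 7, some of them overlapping, and FOXP1 6. A match is a description of these letters and not a bound site.

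Of the receptor kinase and ligand genes, EPHA3, a receptor tyrosine kinase for ephrins, was at 9.30 in steady state, 9.07 with vehicle, 9.19 with DHT, 6.36 with etoposide and 7.83 with merbarone. Both inhibitor arrays were below the other 3, with differences from DHT of -2.83 (7.12-fold lower) with etoposide and -1.36 (2.57-fold lower) with merbarone. NRG1, the neuregulin ligand of the ERBB receptors, differed from DHT by -0.18 with etoposide and 0.00 with merbarone. Of the 4 matrix and heparan sulfate genes, MMP16, a membrane-anchored matrix metalloproteinase, was at 10.63, 10.26, 9.98, 7.34 and 9.30 in the same order of arrays, with differences from DHT of -2.64 and -0.68. GPC6, a glypican, was dim with both inhibitors (5.67 and 5.28). EXT1, a polymerase of heparan sulfate chains, differed from DHT by -0.54 and -0.53, and THSD4, a fibrillin-binding matrix protein, by 0.43 and -0.26.

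Both receptor-type tyrosine phosphatases kept were lower with etoposide, PTPRG with a difference of -1.35 and PTPRK with -0.83. PTPRG was at 7.55 in steady state, 9.19 with vehicle, 9.15 with DHT, 7.79 with etoposide and 8.55 with merbarone. Of the 4 membrane traffic genes, EXOC4, a subunit of the exocyst that tethers secretory vesicles, went opposite ways with the inhibitors. It was at 9.18, 9.36, 9.27, 8.21 and 9.94, with differences from DHT of -1.05 with etoposide and 0.67 with merbarone. VPS13B, a lipid transfer protein of the Golgi, was at -0.95 with etoposide and at -0.00 with merbarone. NBEA, a scaffold of vesicle traffic, was at -0.42 and TBC1D5, a Rab GTPase-activating protein, at -0.48 with etoposide.

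Among the 5 enzyme genes, IMMP2L, a peptidase of the mitochondrial inner membrane, was at 10.33 in steady state, 10.95 with vehicle, 10.94 with DHT, 9.23 with etoposide and 11.18 with merbarone. Its differences from DHT were thus -1.71 (3.28-fold lower) and 0.24. NAALADL2, a relative of glutamate carboxypeptidase, was at 6.98, 7.20, 7.31, 5.87 and 6.72, with differences of -1.44 and -0.58. WWOX, an oxidoreductase with WW domains, was at 7.50, 7.80, 7.79, 6.69 and 7.72, with differences of -1.10 and -0.07. FTO, an RNA demethylase, was at -0.35 and 0.13. PDE4D, a cyclic AMP phosphodiesterase made in many isoforms, was higher with both, by 0.57 and 0.64. Of the scaffold genes, LPP, a LIM protein of focal adhesions, was at 10.57, 10.52, 10.64, 9.09 and 10.39, with differences of -1.55 (2.94-fold lower) and -0.25. PARD3, a cell polarity scaffold, was at -0.37 and 0.91. Both transcription and chromatin genes were lower with etoposide by less than 1. FOXP1, a forkhead transcription factor, was at -0.85 and, with merbarone, 0.88, and AUTS2, a regulator that works with Polycomb proteins, at -0.46 and -0.76.

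**Figure D2:**
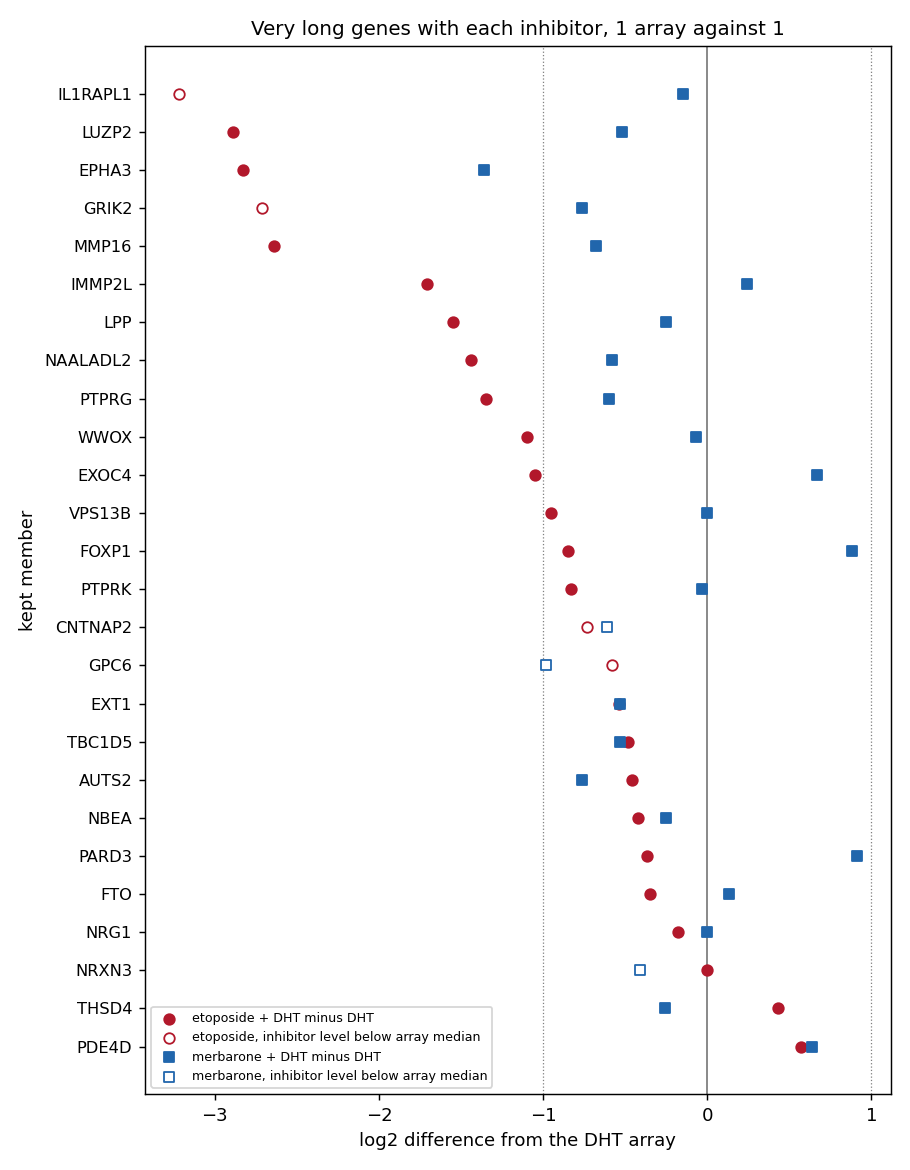
Log2 difference of each kept member (rows) from the DHT array with etoposide (circles) and merbarone (squares), 1 array against 1, with open symbols where the inhibitor level was below its array's median and dotted lines at -1 and 1. Etoposide values run from -3.22 to 0.57 with 11 at or beyond -1, and merbarone values from -1.36 to 0.91 with 1.

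The 26 kept members had 98 probe sets, of which 59 were above the median with DHT. Of those 59, 53 were below 0 with etoposide and 23 were lower by at least 1, against 3 with merbarone. In 11 of the 14 members with several such probe sets all were below 0. The 3 bright GRIK2 probe sets ran from -2.71 to -1.75, the 2 of IL1RAPL1 from -3.22 to -2.18 and the 5 of MMP16 from -2.64 to -0.54. The array subtracted here is the one on which the 59 were chosen as bright, so nothing is read from these counts. The 39 dim probe sets were left out, and their etoposide differences lay on both sides of 0 (18 below, 19 above and the others at 0.00). FOXP1, LPP and WWOX were mixed among their bright probe sets. The 8 FOXP1 probe sets ran from -1.71 to 0.13, the 6 of LPP from -1.85 to 0.28 and the 4 of WWOX from -1.10 to 0.14. With the median over all probe sets of a gene in place of the brightest, the differences for WWOX (-0.19), EXOC4 (-0.53), LPP (-0.78), MMP16 (-1.23), IMMP2L (-1.05) and GRIK2 (-1.62) were smaller by more than 1.5 times.

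The etoposide differences are given here by listed start over the 21 members with windows. They come from the array that chose the members, and nothing is read from them. Of the 13 with 1 listed start, 8 were lower by at least 1 (median -1.10), and of the 8 with several, 2 were (GRIK2 and LPP, median -0.45). In 4 members the most downstream start lay under 300 kb from the gene's end, at 31 kb for PDE4D, 110 kb for FOXP1, 196 kb for NBEA and 236 kb for THSD4. None of those 4 was lower by 1, and their values ran from -0.85 to 0.57. Of the 17 whose most downstream listed start lies 300 kb or more from the gene's end, 10 were lower by at least 1, with values from -3.22 to 0.00. Which starts LNCaP cells use was not measured here. Within the 26 kept members Spearman's rho between span and the etoposide difference was 0.19. Between the DHT level, which chose the members, and that difference rho was -0.51. Both are descriptions over genes on the same 2 arrays, and nothing is read from either.

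The inhibitors, equal in dose and time, were also compared with each other, on arrays that the rule on DHT level did not use. The list of members was made with earlier results of these data known. These arrays may therefore have shaped it, and nothing is read from the count of members. By limma, which assumes here that these lone arrays vary like those of the 3 DHT-vehicle pairs, 14 of the 24 tested kept members were lower with etoposide and 0 were higher (15 and 0 at an unadjusted p under 0.05). Of all genes tested, 19.1% were lower and 13.5% higher. Centring the arrays on normalization control probe sets moved the lower share of all these calls from 58.6% to 49.9%. A repeated quantile normalization moved it to 49.7%, and either gave 13 members lower in place of 14. The 14 included all 11 members named above, together with FOXP1, VPS13B and FTO. Those 11 were named for low values on this same etoposide array, so nothing is read from their passing together. IL1RAPL1 differed by -3.07 ± 0.25 (SE, limma adjusted p = 0.000647), or by at least 2.56 with its dim level raised. LUZP2 differed by -2.37 ± 0.22 (adjusted p = 0.000944), and IMMP2L by -1.96 ± 0.16 (adjusted p = 0.000647). FOXP1 differed by -1.73 ± 0.11 (adjusted p = 0.000376) and EXOC4 by -1.72 ± 0.15 (adjusted p = 0.000717), both genes that were above their DHT level with merbarone. MMP16 (-1.96 ± 0.19), EPHA3 (-1.47 ± 0.17) and LPP (-1.30 ± 0.12) also passed, as did GRIK2 (-1.96 ± 0.36), dim with etoposide and so lower by at least 1.80.

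The other 10 tested members did not pass, with differences from -1.28 (PARD3, adjusted p = 0.0516) to 0.40 (GPC6). Their 95% intervals reached from -2.24 to 1.27 in all, so these genes are not shown to respond alike. The narrowest of these intervals was that of TBC1D5, whose difference of 0.05 had an interval of -0.30 to 0.40. WWOX lost its call with the median over probe sets (-0.07), as did VPS13B (-0.42). FTO and PTPRG, the smallest called differences at -0.48 and -0.75, lost theirs under several settings, among them a repeated quantile normalization (-0.34 and -0.64) and the fit without the sh-TOP2B pair. NAALADL2 (-0.85) also lost its call without that pair. Of 9 luminal markers 4 were higher with etoposide than with merbarone and 0 lower, and the part of such changes in the members' values was not tested.

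**Figure D3:**
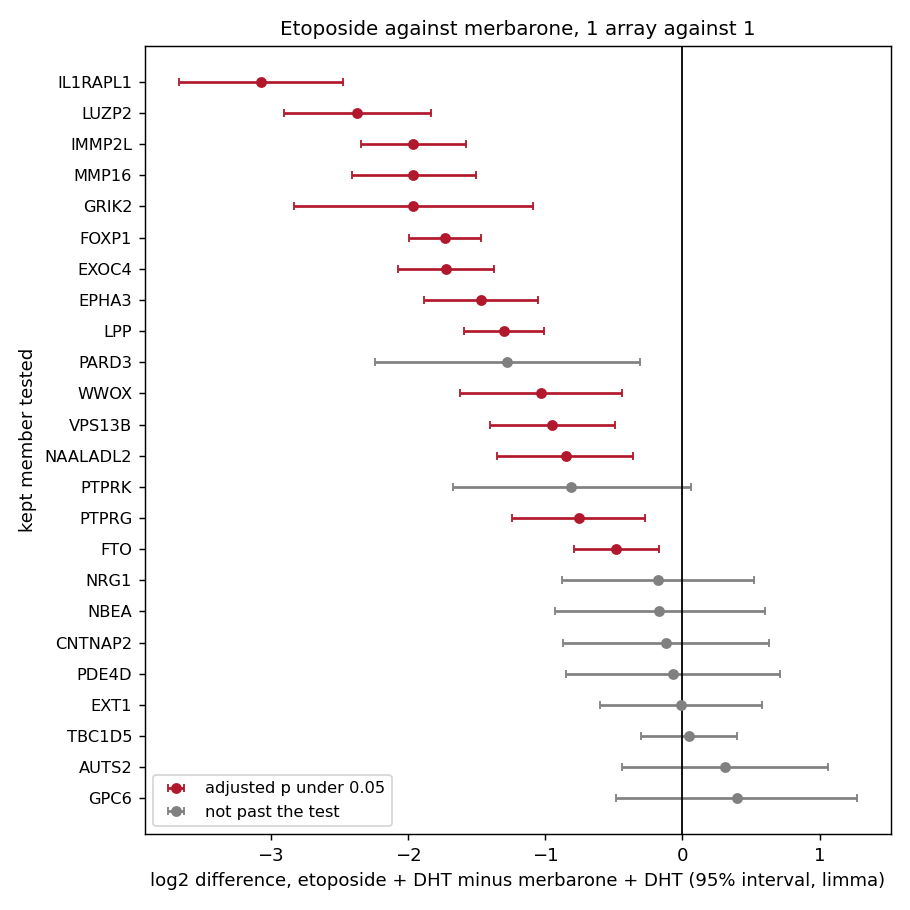
Log2 difference between the etoposide and merbarone arrays (both with DHT) for the 24 kept members tested, as points with 95% intervals from limma, red where the adjusted p was under 0.05. All 14 red points lie to the left of 0, from -3.07 (IL1RAPL1) to -0.48 (FTO), and the 10 grey points lie from -1.28 to 0.40.

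To set the members beside every other gene of their length, all 360 tested genes with a RefSeq span of 300 kb or more were taken, 336 of them not on the list. With etoposide, 18 of the 336 (5.36%) were lower than with DHT past limma and 0 higher, where 0.834% of all genes were lower and 0.211% higher. Their median difference was -0.29, against -0.06 for all genes. With the tested members, whose choice used the DHT array, 28 of the 360 were lower and 0 higher (114 and 10 at an unadjusted p under 0.05), and the median was -0.32. With merbarone 52 of the 336 were lower and 42 higher, where 16.3% of all genes were lower and 15.4% higher, so both counts lay near or under the background. The etoposide count over the 360 rests on the spread borrowed from the DHT pairs. It was 8 without the sh-TOP2B pair, 0 without the sh-control pair, 96 without the inhibitor pair and 0 without the intensity trend. Centring the arrays on the 100 normalization control probe sets moved the median of all genes with etoposide from -0.059 to 0.042. That centring and a repeated quantile normalization also moved the lower share of all 124 etoposide calls from 79.8% to 67.8% and 68.5%.

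Other very long genes that fell with etoposide included PRKD1, a protein kinase D gene (12.53 with DHT, 10.97 with etoposide, -1.57 ± 0.18, limma adjusted p = 0.0237), and FBXL17, an F-box protein gene (12.27 and 10.73, -1.53 ± 0.08, adjusted p = 0.00189). MAML3, a Notch coactivator (-1.55 ± 0.24), CDK14, a cyclin-dependent kinase (-1.52 ± 0.14), and PLXDC2 (-1.42 ± 0.21) completed the 5 largest falls. With merbarone MAML3 fell further, by 2.21, whereas FBXL17 stood at 12.06 and CDK14 at 10.19, near their DHT levels of 12.27 and 9.89. The largest falls with merbarone were NAV3 (at least 2.12, dim with merbarone), MAML3, SLC4A4, a bicarbonate cotransporter (-2.18 ± 0.26), SHROOM3, an actin regulator (-1.84 ± 0.21), and MGAT5, a glycosyltransferase (-1.63 ± 0.14). The largest rises were FGF13 (2.92 ± 0.41), the autophagy gene UVRAG (2.20 ± 0.24), the phosphodiesterase gene PDE10A (1.48 ± 0.22), the muscarinic receptor gene CHRM3 (1.45 ± 0.24) and ASTN2 (1.41 ± 0.21).

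The share of genes lower with etoposide was graded by span. It was 1.15% for genes under 10 kb, 0.927% for 10 to 30 kb, 1.03% for 30 to 100 kb, 1.89% for 100 to 300 kb, 5.06% for 300 to 500 kb and 19.5% for the 123 genes of 500 kb or more, each lower by at least 1. Without the listed members the last share was 14.6% of 103 genes. With merbarone the share went from 6.91% in the shortest to 9.76% in the longest genes, and in steady state against vehicle from 5.84% to 22.8%. Genes of 500 kb or more had a median of 3 probe sets, against 1 for genes under 10 kb. The shares were also taken within 3 ranges of the mean level, an alternative chosen after seeing the data. In the lower (5.92 to 7.88), middle (7.88 to 9.73) and upper (9.73 to 14.35) range, 4.35%, 10.7% and 20.5% of genes of 300 kb or more were lower by at least 1 with etoposide, against 1.15%, 1.37% and 0.569% of genes under 100 kb. With the listed members left out, the etoposide shares of the long genes were 2.65%, 7.96% and 18.1%. With merbarone 4.97%, 13.2% and 12.8% of genes of 300 kb or more were lower, against 5.26%, 8.85% and 7.73% under 100 kb. In steady state against vehicle the shares were 14.3%, 28.1% and 16.7%, against 5.53%, 6.64% and 5.06%. These are descriptions of single arrays with no test.

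**Figure D4:**
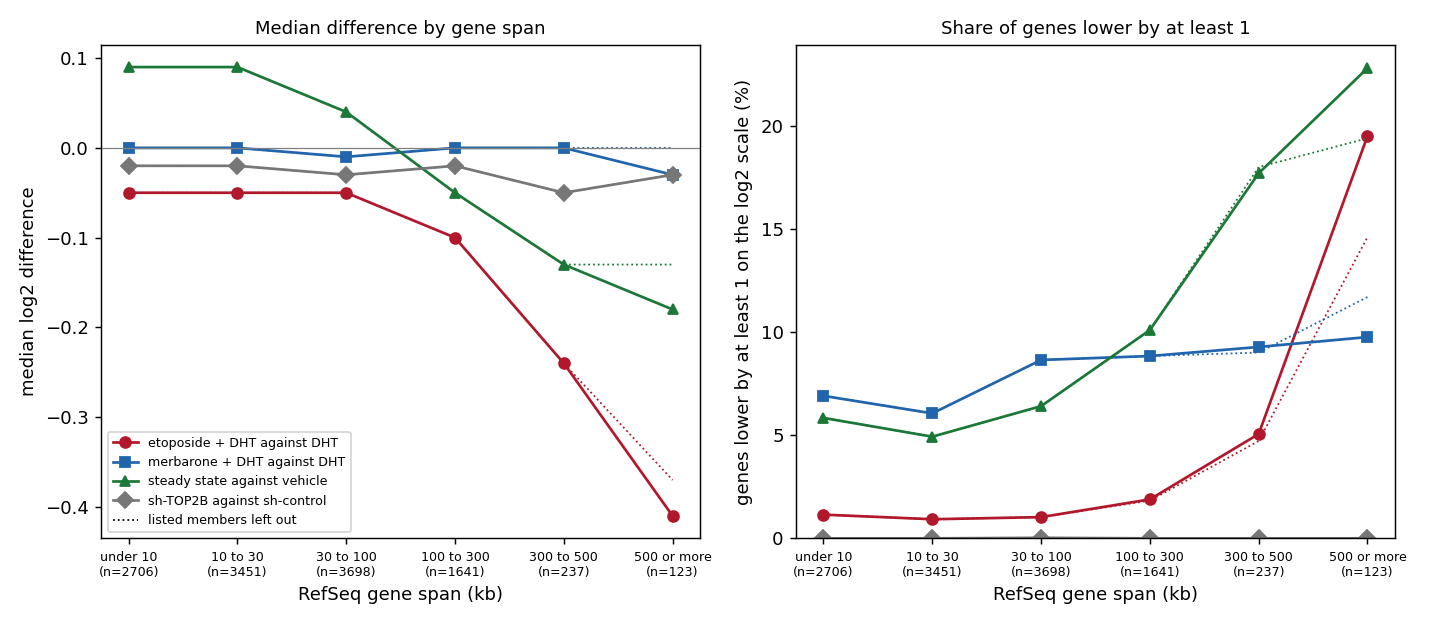
Median log2 difference (left) and percentage of genes lower by at least 1 on the log2 scale (right) by RefSeq gene span in kb, for 4 comparisons, over all genes tested, with dotted lines where the listed members are left out. The etoposide line rises from 1.15% to 19.5% on the right and falls to -0.41 on the left, the steady-state line rises from 5.84% to 22.8%, the merbarone line goes from 6.91% to 9.76%, and the knockdown line stays near 0.

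With the knockdown, no tested kept member was lower and EXT1 was higher. TOP2B itself, measured by 1 probe set, was at 10.54 in sh-control and 10.09 in sh-TOP2B cells with vehicle, and at 10.87 and 10.01 with DHT. The difference over the 2 pairs was -0.66 ± 0.12 and did not pass limma (adjusted p = 0.0934), with lower values in both pairs. Of the 24 tested kept members 0 were lower and 1 was higher, also at an unadjusted p under 0.05. Of all genes, 0% were lower (0 of 11865) and 1.05% higher. The 11 members that were lower by at least 1 with etoposide had knockdown differences between -0.34 (WWOX) and 0.11 (PTPRG). The lower ends of their 95% intervals lay between -0.75 and -0.23, so differences of -1 or beyond lay outside these intervals and smaller falls lay within them. IL1RAPL1 was at 9.26 and 9.12 with vehicle and at 9.76 and 9.72 with DHT in sh-control and sh-TOP2B cells, and LUZP2 at 10.48 and 10.43, and at 9.89 and 9.65. For both genes the vehicle and DHT levels differed more than the sh-control and sh-TOP2B levels. The beta-actin control read 3.09 against 2.69 in the vehicle pair and 2.67 against 2.38 in the DHT pair (sh-control against sh-TOP2B), and its part in the knockdown values was not tested.

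The shRNA-series levels of the other members with a large etoposide difference are given in the order sh-control, sh-control with DHT, sh-TOP2B and sh-TOP2B with DHT. GRIK2 was at 8.93, 7.96, 8.92 and 7.97, MMP16 at 12.02, 11.22, 11.76 and 11.13, and EPHA3 at 10.13, 10.07, 9.90 and 9.75. GRIK2 and MMP16 were lower on both DHT arrays than on both vehicle arrays, whichever hairpin was used, and EPHA3 was lower on both sh-TOP2B arrays (-0.28 ± 0.12, limma adjusted p = 0.733, no call). IMMP2L was at 10.71, 10.34, 10.56 and 10.27, LPP at 11.85, 12.15, 11.90 and 11.99, and NAALADL2 at 8.23, 8.31, 8.21 and 8.25. PTPRG was at 9.81, 10.08, 10.16 and 9.95, EXOC4 at 9.99, 9.80, 9.89 and 9.72, and WWOX at 7.03, 6.84, 6.49 and 6.71. PTPRG and LPP were higher with sh-TOP2B in the vehicle pair and lower in the DHT pair, and both WWOX levels with sh-TOP2B were below both with sh-control.

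The member that rose with the knockdown was EXT1. It was at 7.56 in steady state, 7.70 with vehicle and 7.70 with DHT in the inhibitor series. It was at 8.16 in sh-control and 9.30 in sh-TOP2B cells with vehicle and at 7.61 and 8.87 with DHT, so both sh-TOP2B arrays were above both sh-control arrays. The rise was 1.21 ± 0.17 (limma adjusted p = 0.0335), with 1.14 in the vehicle and 1.27 in the DHT pair. Its other probe sets, both dim with DHT in the inhibitor series, differed by 1.04 and 1.04. Without the intensity trend the difference stayed 1.21 and did not pass. With the median over probe sets EXT1 was under the filter on dim genes and was not tested. Of the 360 genes of 300 kb or more, 0 were lower and 6 (1.67%) higher with the knockdown (9 and 21 at an unadjusted p under 0.05). The shares over all genes were 0% and 1.05%.

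Steady-state cells had lower levels of many kept members than androgen-deprived cells. By limma 10 of the 24 tested were lower and 0 higher than with vehicle (10 and 1 at an unadjusted p under 0.05), where 12.4% of all genes were lower and 15.7% higher. Centring on control probe sets moved the lower share of all these calls from 44.3% to 54.9%. PTPRK, a receptor phosphatase that holds cell contacts, was at 6.29 in steady state and at 10.19 with vehicle, with 9.99, 9.16 and 9.97 with DHT, etoposide and merbarone and 8.84 to 10.09 in the shRNA series. The difference was -3.89 ± 0.36 (limma adjusted p = 0.00065), or 14.9-fold. NBEA was dim in steady state (4.41), at 7.29, 7.24, 6.81 and 6.98 with vehicle, DHT, etoposide and merbarone, and at 6.45 to 7.25 in the shRNA series. It was lower than with vehicle by at least 1.66, or 3.17-fold. IL1RAPL1 (-2.03 ± 0.25), GRIK2 (-1.82 ± 0.36), AUTS2 (-1.72 ± 0.31), PTPRG (-1.64 ± 0.20) and LUZP2 (-1.50 ± 0.22) were lower by more than 1, as was VPS13B (-1.03 ± 0.19). AUTS2 was at 7.36 in steady state and 9.08 with vehicle, and VPS13B at 7.79 and 8.82, the latter close to its etoposide level of 7.77. FOXP1 (-0.70 ± 0.11) and IMMP2L (-0.62 ± 0.16) passed with smaller differences. With the median over probe sets 6 members were called, and AUTS2 then changed sign against DHT (0.26). Against the DHT array 7 kept members were lower by at least 1 in steady state, beside 6.07% of genes above its median, from which nothing is read.

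Of the 11 lower by at least 1 with etoposide, 5 (IL1RAPL1, GRIK2, LUZP2, PTPRG and IMMP2L) were lower in steady state past limma, and these were 5 of the 10 lower in steady state. The 11 were set against the array that chose the members, so nothing is read from the overlap. The other 6, EPHA3, MMP16, LPP, NAALADL2, WWOX and EXOC4, had steady-state differences between -0.29 and 0.36 with no call at the probe set used. Their other bright probe sets spread further, at -0.62 for EPHA3, -1.05 and 0.61 for EXOC4 and -0.93 to 0.00 for LPP. Those of MMP16 and WWOX ran from -0.44 to 0.09, and NAALADL2 had no other. The other 5 lower in steady state, among them PTPRK and NBEA, were at -0.95 to -0.42 with etoposide. Over the wider list, 88 of 360 genes (24.4%) were lower and 33 (9.17%) higher in steady state, and without the listed members 78 and 33 of 336. Of all genes, 12.4% were lower and 15.7% higher. TOP2A, the topoisomerase II of dividing cells, was at 10.42 in steady state and dim, at 4.42, with vehicle in the inhibitor series. In the shRNA series, whose cells were also deprived, it was at 8.97 and 9.05 in sh-control cells with vehicle and DHT. In sh-TOP2B cells it was at 8.82 and 9.17. Steady-state cells also differed from vehicle in serum and androgen together, and these cannot be told apart.

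**Figure D5:**
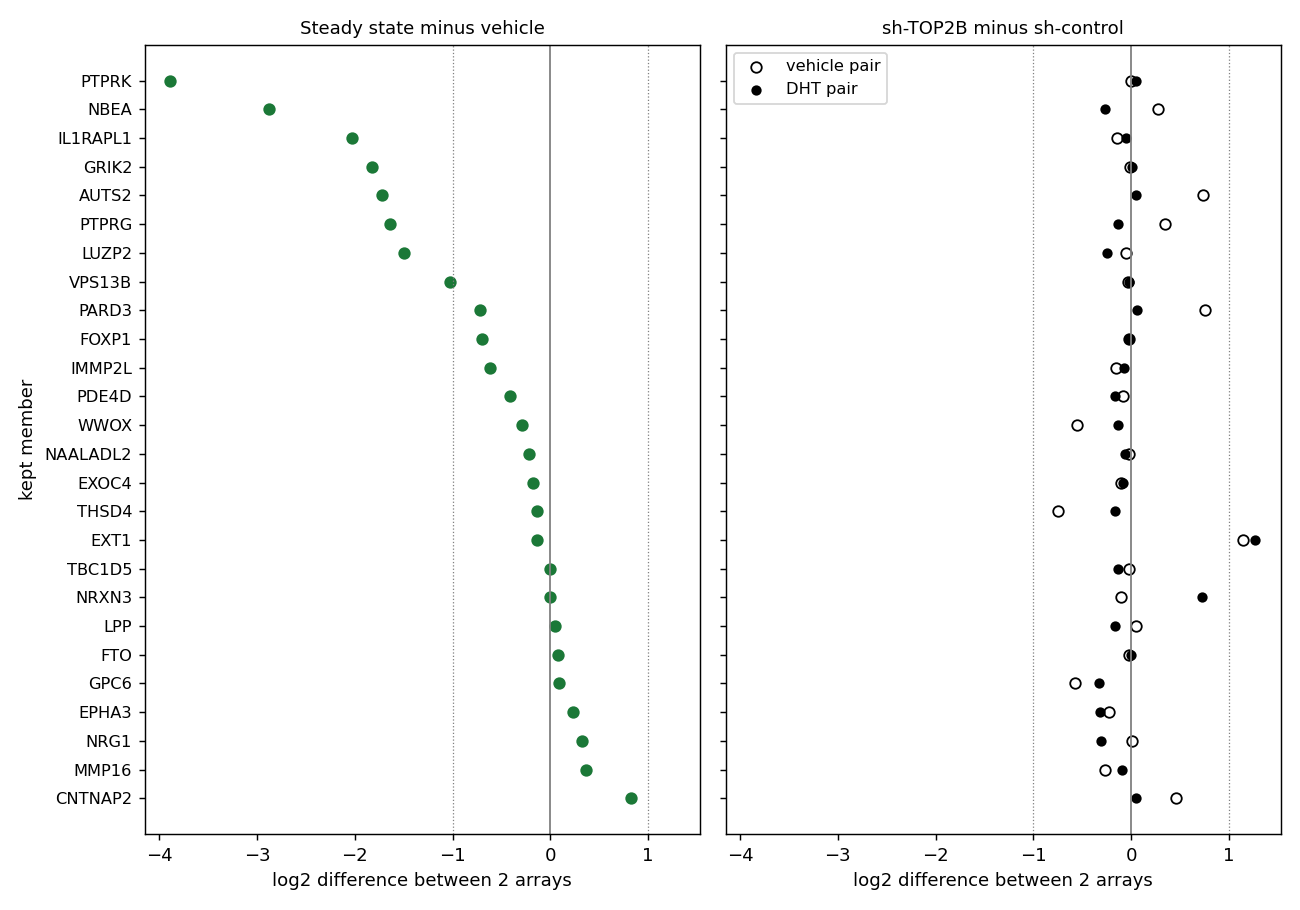
Log2 differences of the 26 kept members between steady state and vehicle (left, 1 array against 1) and between sh-TOP2B and sh-control cells (right, open circles for the vehicle pair and filled for the DHT pair), ordered by the left panel, with dotted lines at -1 and 1. Steady-state values run from -3.89 (PTPRK) to 0.82 (CNTNAP2), and in the knockdown panel EXT1 alone lies beyond 1, at 1.14 and 1.27.

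DHT itself was followed in 3 pairs. In the inhibitor series the kept members differed from vehicle by -0.30 to 0.31, so their level with DHT was close to that without. In the sh-control pair the range was -1.26 to 1.01 and in the sh-TOP2B pair -1.21 to 0.60. In the fit without the inhibitor pair, and so without the array that chose the members, limma called 11 of 24 lower and 1 higher (12 and 4 at an unadjusted p under 0.05), where 11.2% of all genes were lower and 8.87% higher. PTPRK fell by 1.23 ± 0.10 (limma adjusted p = 9.91e-06), PDE4D by 1.09 ± 0.16 (adjusted p = 0.000817) and GRIK2 by 0.96 ± 0.15 (adjusted p = 0.000794), and IL1RAPL1 rose by 0.55 ± 0.13 (adjusted p = 0.0107). With all 3 pairs in the fit none was called, and none was called without the sh-control or without the sh-TOP2B pair. In the same pairs the beta-actin control also read lower after DHT, 2.67 against 3.09 and 2.38 against 2.69, and its part in these falls was not tested.

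The genes that carry transcription through long templates were set beside these values. Of 31 listed genes of the elongation machinery, which release, drive or modify RNA polymerase II, 28 were measured and all 28 were above the median on every array. With etoposide 0 of the 28 passed limma in either direction, where 0.834% of all genes were lower and 0.211% higher. The median of the 28 was -0.02. With merbarone 5 (17.9%) were lower and 4 (14.3%) higher, with the same median of -0.02. Of all genes, 16.3% were lower and 15.4% higher with merbarone, so both counts lay near the background. Among topoisomerases, TOP1, which relaxes DNA by cutting a single strand, was at 11.73 with DHT, 11.71 with etoposide and 11.73 with merbarone. TOP2B was at 10.57, 9.94 and 10.03 (with etoposide -0.63 ± 0.17, limma adjusted p = 0.17, and with merbarone -0.54 ± 0.17, adjusted p = 0.0499). TOP2A was dim on all 3 of those arrays.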

How the data were processed

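RNA from LNCaP cells was hybridised to Affymetrix U133 Plus 2.0 arrays, 9 in all with 1 per group. The deposited values are log2 expression values made by the authors with RMA, per the submitters' processing notes, and its version is not given in the sources used here. The method subtracts background, quantile-normalizes arrays and summarises probes, so a change shared by most genes is removed, and the number of arrays limits the precision. Of 54675 probe sets, 41097 had 1 gene, 1801 several and 11777 none. RefSeq (GRCh38.p14) gave the spans of 41043 of them by gene ID. The brightest probe set stood for each of 19775 genes, and probes shared with related transcripts were not removed.

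Genes with a mean at or above the 40th percentile, 11865 in all, were tested in R 4.3.3 with limma 3.58.1, two-sided, with Benjamini-Hochberg adjustment over all of them and a threshold of 0.05. The additive fit had a term for DHT, a block for each of the 3 backgrounds and a term for each lone array. It left 2 residual degrees of freedom, and limma's pooling of variance over genes, run with an intensity trend, added 4.62 prior degrees of freedom. The script was tested on simulated data. Alternatives changed the probe set rule, filter, scaling, trend, span limit and pairs used.

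The members and lists were chosen with earlier results of these data known, so counts over the members are not independent of these arrays. Named genes were any members, the topoisomerases and, of other genes spanning 300 kb or more, the 5 largest falls and rises past limma with each inhibitor. Basal, stromal, leukocyte and neuroendocrine markers were read as levels.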

Additional observations from a re-analysis of the deposited data

How the results depend on the processing

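The number of kept members lower by at least 1 with etoposide was 8 to 11 over 6 alternatives, against 11 in the report, and the number lower with etoposide than with merbarone by limma was 11 to 16 over 11 alternatives, against 14. With the median over probe sets, the members lower by 1 with merbarone went from 1 to 0, those called with the knockdown from 1 to 0 (EXT1 was not tested there), those called in steady state from 10 to 6, and the genes of 300 kb or more lower with merbarone from 54 to 32, while AUTS2 in steady state against DHT reversed to 0.26. Without the intensity trend the knockdown count was 0, with EXT1 still at 1.21, and the etoposide count over genes of 300 kb or more went from 28 to 0. The latter was 18 without the filter on dim genes, 96 without the inhibitor pair, 8 without the sh-TOP2B pair and 0 without the sh-control pair, and the merbarone count was 83 without the inhibitor pair. The DHT count of 12 members was 0 with all 3 pairs, under every scaling, filter and probe set rule tried with them, and 0 without the sh-TOP2B or the sh-control pair. The share of genes of 300 kb or more lower by 1 with etoposide was 10%, 19.5% at a limit of 500 kb and 4.9% without the filter, the last alternative chosen after seeing the data. Of 281 single-gene alternatives 252 kept direction and, for tested differences, the call, 20 lost the call, 8 moved in size and 1 reversed. A change of filter, trend or pairs leaves the size of these differences as it was, so direction could not change there. Differences from the DHT array had no call to keep, and EXOC4 with etoposide, from -1.05 to -0.53, is among the 252. Over all genes, the 124 etoposide calls became 0 without the trend or the sh-control pair, 24 when the sh-TOP2B pair was dropped, 1078 without the inhibitor pair, 56 without the filter, 192 with a stricter filter and 232 against the level fitted from all pairs. Apart from the filter and the dropped pairs, the cause was not tested. The fit in use already holds the 3 DHT and vehicle pairs as blocks, and the labels give no replicate numbers for another block.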
